A study of Mus musculus with 6 samples.

Results

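Cathepsins are proteases that work mostly inside lysosomes, and 10 of their genes are described here in degenerating and healthy mouse retina: Ctsa, Ctsb, Ctsc, Ctsd, Ctsf, Ctsh, Ctsk, Ctsl, Ctss and Ctsz. They were picked by gene symbol, and the choice was made with earlier results of these data known. All 10 were among the 24062 genes of the count table, and 9 of them were among the 13905 genes that passed the filter on low counts. Ctsk did not pass. RNA-seq was run on whole retinas of rd10 mice and of C57Bl6/J wild-type (WT) mice at postnatal day 30, with 3 libraries per group and 2 frozen retinas in each sample. The rd10 line carries a missense allele of Pde6b, a rod phosphodiesterase gene, in all its cells, and its rods die in the weeks after birth. The labels name no treatment or transgene and give C57Bl6/J as the strain of both groups. The study's title asks about YAP and TEAD in reactive Müller cells, a retinal glia. Libraries keep their names from the count table (Rd10-3, Rd10-4 and Rd10-5; WT-1, WT-4 and WT-23), because those numbers, as sets, are not the replicate numbers 1 to 3 of the titles. Since nothing in the labels says that the 3 samples of a group were separate animals, p-values here measure the spread between these samples only.

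Cathepsins are made as inactive precursors, sorted to the lysosome through mannose 6-phosphate and other receptors, and activated there at acid pH. Most are cysteine proteases of the papain family (Ctsb, Ctsc, Ctsf, Ctsh, Ctsk, Ctsl, Ctss, Ctsz), while Ctsd encodes an aspartic protease and Ctsa a serine carboxypeptidase. In the retina they serve the pigment epithelium, which digests shed outer segments, and microglia, the phagocytes that take up dying photoreceptors. Cystatins are their main inhibitors.

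The rd10 libraries held between 10923556 and 12171088 counts and the WT libraries between 13573035 and 15818918. Retinal identity was clear in both groups, since all 15 rod genes listed were detected, and all 15 fell in rd10 (summed level 22852 to 33308 CPM in rd10 and 111956 to 130166 CPM in WT). CPM here relates counts to the library size, scaled with TMM factors. Of the 13905 genes tested, 14.4% differed between rd10 and WT at an adjusted p under 0.05 (edgeR quasi-likelihood test, Benjamini-Hochberg adjustment), 7.12% higher in rd10 and 7.32% lower. The split between higher and lower calls moved with the scaling. With TMM factors 49.3% of calls were higher, against 81.2% for library size alone and 63.3% for upper quartile factors. With factors set by the TMM method on inner neuron genes alone (those of bipolar, amacrine and ganglion cells) it was 18.0%. The median over all genes shifted with them, by 0.24 on the log2 scale with library size alone and by -0.25 with the inner neuron factors, both relative to TMM. Pde6b itself averaged 758 ± 216 CPM in rd10 and 3231 ± 221 CPM in WT (SD, n = 3 libraries each); since its allele is a missense change, this does not check the labels.

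Of the 9 cathepsins tested, 6 rose in rd10 retinas (Ctss, Ctsh, Ctsc, Ctsz, Ctsd and Ctsl), none fell, and Ctsa, Ctsb and Ctsf did not pass the test. No member was lower at an unadjusted p under 0.05 in edgeR, and 0 were called lower by DESeq2 or limma voom. These 6 are 66.7% of the tested members, beside 7.12% of all tested genes called higher. The median log2 fold change of the 9 was 0.64, against -0.04 for all genes tested. In the same 6 genes every rd10 library lay above every WT library, which held for 17.1% of all genes tested. Ctsb was the 1 member with every rd10 library below every WT library, as were 18.6% of all genes. With inner neuron factors 4 members were called higher (Ctss, Ctsh, Ctsc and Ctsz) and 1 lower (Ctsf), and the median of the 9 was 0.39. In that fit 21.4% of all genes were called lower, and the median of all genes was -0.29. With library size alone 6 members were called higher, and the median of the 9 was 0.88. There 17.8% of all genes were called higher, and the median of all genes was 0.20. Without WT-4, Rd10-3 or Rd10-4 the number of called members was 3 (Ctss, Ctsh and Ctsc), and the call count over all genes was 952, 885 and 1227 in those fits.

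**Figure D1:**
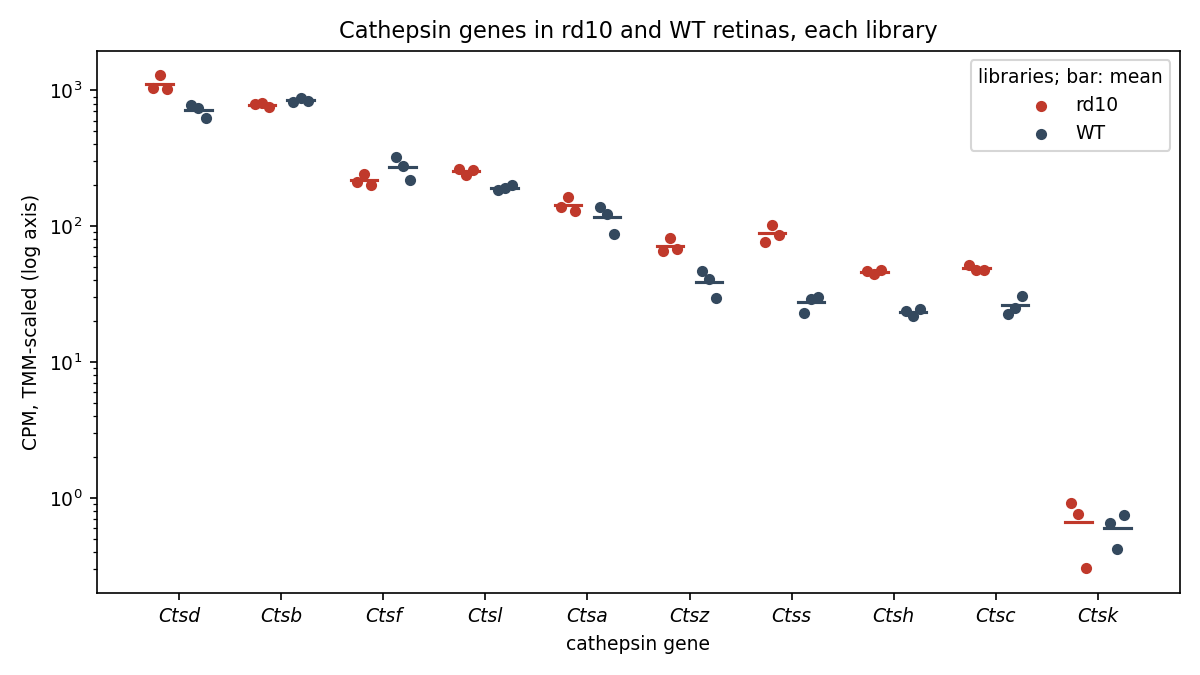
Level of each of the 10 cathepsins in the 6 libraries, as CPM on a log10 axis, with rd10 libraries left of WT libraries and a bar at each group mean. The groups are fully apart for Ctss, Ctsh, Ctsc, Ctsz, Ctsd and Ctsl (rd10 higher) and for Ctsb (rd10 lower), and they mix for Ctsa, Ctsf and Ctsk.

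Promoter windows show what sequence lies around the starts of these genes. RefSeq windows on GRCm38.p6, from 250 bases before to 50 after the start, were at hand for 8 of the 10 members, all but Ctsb and Ctsh. Both strands were searched for CACGTG, the core of the E-box that TFEB and related lysosomal regulators bind, for TCACGTGA, a longer form that contains it, and for GAGGAAGT, a core bound by the myeloid factor PU.1. CACGTG occurred in windows of 4 members (Ctsa, Ctsd, Ctsf and Ctsl) and in 7.15% of all 32851 promoter windows. TCACGTGA occurred in Ctsa and Ctsd, and in 0.974% of all windows. GAGGAAGT occurred in Ctss and Ctsc, and in 3.20% of all windows. The windows with the longer E-box form and those with the PU.1 core are printed 5′ to 3′ on the gene's strand with the matched letters in capitals. In Ctss and Ctsc the capitals read as the reverse complement ACTTCCTC, starting 2 bases before the start of Ctss and 151 bases before that of Ctsc. Ctsd has TCACGTGA at position -99 and a further CACGTG at -245, and Ctsa has TCACGTGA at -13 and 5 relative to a start used by some of its transcripts. These letters are a description of the windows and not evidence that a factor bound there. The windows are Ctss chr3:95526536-95526835 (plus strand), Ctsc chr7:88277835-88278134 (plus strand), Ctsd chr7:142387778-142388077 (minus strand) and Ctsa chr2:164833523-164833822 (plus strand).
Ctss: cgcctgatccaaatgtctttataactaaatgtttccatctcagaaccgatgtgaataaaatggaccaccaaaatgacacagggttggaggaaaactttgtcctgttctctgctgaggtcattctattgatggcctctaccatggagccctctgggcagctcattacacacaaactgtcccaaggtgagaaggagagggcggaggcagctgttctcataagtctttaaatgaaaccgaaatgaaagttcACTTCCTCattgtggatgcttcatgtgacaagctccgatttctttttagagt
Ctsc: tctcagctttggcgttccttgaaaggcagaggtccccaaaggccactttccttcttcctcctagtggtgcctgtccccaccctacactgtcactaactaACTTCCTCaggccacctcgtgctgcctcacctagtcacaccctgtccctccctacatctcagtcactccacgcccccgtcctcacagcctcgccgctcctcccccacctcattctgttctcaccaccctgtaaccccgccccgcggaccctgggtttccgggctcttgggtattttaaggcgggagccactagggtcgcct
Ctsd: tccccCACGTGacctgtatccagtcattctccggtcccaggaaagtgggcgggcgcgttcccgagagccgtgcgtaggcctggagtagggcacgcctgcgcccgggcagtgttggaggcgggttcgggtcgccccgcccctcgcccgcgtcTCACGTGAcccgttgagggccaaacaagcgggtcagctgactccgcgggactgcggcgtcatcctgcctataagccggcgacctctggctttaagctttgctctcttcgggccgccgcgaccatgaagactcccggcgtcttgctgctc
Ctsa: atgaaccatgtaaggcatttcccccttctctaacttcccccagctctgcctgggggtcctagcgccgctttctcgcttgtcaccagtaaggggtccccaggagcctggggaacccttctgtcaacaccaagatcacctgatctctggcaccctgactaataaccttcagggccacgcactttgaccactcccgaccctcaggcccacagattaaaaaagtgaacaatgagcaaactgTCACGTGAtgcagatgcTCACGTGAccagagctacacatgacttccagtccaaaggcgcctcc

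Per length of transcript, Ctsd was the most abundant cathepsin and Ctsk the least in both groups. Levels between genes are given as CPM per kb of the longest transcript matched to RefSeq. Ctsd had 528 CPM per kb in rd10 and 338 CPM per kb in WT. Behind it came Ctsb, with 165 CPM per kb in rd10 and 178 CPM per kb in WT. In rd10 the order went on with Ctsl (129), Ctsf (111), Ctss (65.3), Ctsz (49.8), Ctsa (39.3), Ctsh (28.6), Ctsc (15.3) and Ctsk (0.439 CPM per kb). In WT it was Ctsf (139), Ctsl (97.6), Ctsa (32.0), Ctsz (27.0), Ctss (20.3), Ctsh (14.5), Ctsc (8.15) and Ctsk (0.401 CPM per kb). The ranges of neighbours over the 3 libraries of a group were apart except those of Ctss and Ctsz in rd10, and of Ctsa and Ctsz, and Ctsz and Ctss, in WT. Within single libraries only Ctsz and Ctss changed order, with Ctss higher in WT-23. Ctsl stood above Ctsf in rd10 and below it in WT.

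As a share of the family's summed level per kb, Ctsd took 46.5 ± 2.09% in rd10 and 39.5 ± 1.34% in WT (SD, n = 3 libraries each). Ctsb took 14.7 ± 0.898% in rd10 and 20.9 ± 1.79% in WT, and Ctsf 9.76 ± 0.152% in rd10 and 16.1 ± 1.85% in WT. Ctss took 5.76 ± 0.473% in rd10 and 2.40 ± 0.508% in WT. The share of Ctsl was 11.5 ± 1.41% in rd10 and 11.5 ± 1.53% in WT. So aspartic Ctsd and cysteine Ctss held more of the family in rd10, and Ctsb and Ctsf less, with no overlap between the groups for any of these 4.

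**Figure D2:**
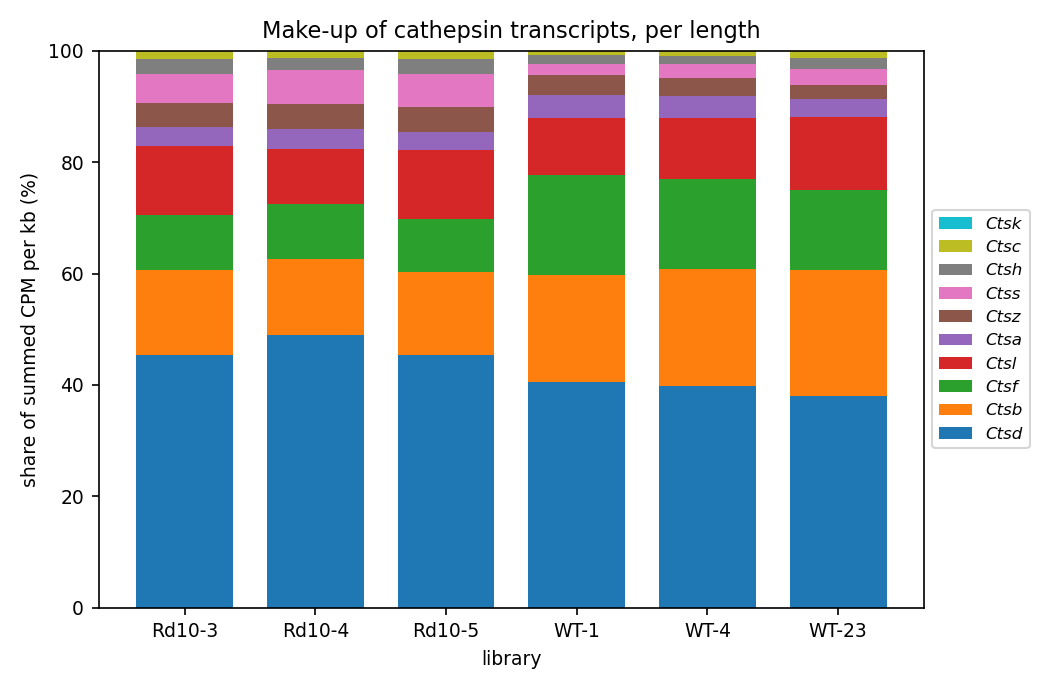
Share of each cathepsin in the family's summed level per kb of transcript, in percent, for the 3 rd10 libraries and then the 3 WT libraries. Ctsd holds between 45.3% and 49.0% in rd10 and between 38.0% and 40.6% in WT, and Ctss is more than 5% of each rd10 bar and under 3% of each WT bar.

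The summed level of all 10 members was 2701, 3013 and 2626 CPM in the rd10 libraries and 2369, 2335 and 2095 CPM in the WT libraries. All 3 rd10 libraries were above all 3 WT libraries, with a ratio of means of 1.23 (exact two-sided permutation test, p = 0.1, the smallest p that 3 against 3 allows). With inner neuron factors the difference of means was 75.0 CPM instead of 513 CPM (exact permutation p = 0.5). For the 8 cysteine cathepsins alone the sum averaged 1514 ± 46.3 CPM in rd10 and 1431 ± 46.7 CPM in WT, a ratio of 1.06 (exact two-sided permutation p = 0.1). Ctsd thus made up most of the difference in the sum: its mean was 404 CPM higher in rd10, while Ctsb and Ctsf had lower means there. As a share of all counts, the 10 members took 0.302 ± 0.0204% in rd10 and 0.208 ± 0.0114% in WT (SD, n = 3 each).

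Among the cysteine endopeptidases, Ctss changed most. It encodes cathepsin S, an enzyme of phagocytes and antigen-presenting cells that stays active at neutral pH and trims the invariant chain of MHC class II. Its gene lies on chromosome 3 from 95526786 to 95556403 on the plus strand (GENCODE M21, mm10), close to Ctsk. Ctss had 1002, 1194 and 1142 counts in Rd10-3, Rd10-4 and Rd10-5, against 280, 421 and 447 in WT-1, WT-4 and WT-23. In CPM this was 76.9, 102 and 86.9 in rd10 and 22.9, 29.3 and 30.3 in WT. Every rd10 library lay above every WT library by a wide margin. Ctss rose 3.21-fold (log2 fold change 1.68 ± 0.16 SE, adjusted p = 0.000726, edgeR quasi-likelihood test), and 275 of the 13905 genes tested had a larger called rise. Retinas are bulk samples, so more cells of a type, more RNA per cell and a larger share left by lost rod RNA cannot be told apart. This holds here and for any gene below. With TMM factors the bipolar, amacrine and ganglion cell lists had median log2 fold changes of 0.34, 0.22 and 0.23.

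Ctsl encodes cathepsin L, a broad endopeptidase of most cell types. It lies on chromosome 13 from 64359337 to 64370890 on the minus strand. Its level was 264, 240 and 258 CPM in rd10 and 184, 190 and 203 CPM in WT, so the groups were apart but close. Ctsl rose 1.32-fold (log2 fold change 0.40 ± 0.10 SE, adjusted p = 0.0370). It did not pass without any 1 of Rd10-3, Rd10-4, Rd10-5 and WT-4 (adjusted p = 0.174, 0.0776, 0.121 and 0.160), nor with inner neuron factors (log2 fold change 0.14, adjusted p = 0.435). An antisense gene, Gm47123, covers 26.8% of the annotated exon bases of Ctsl; no source used here says whether strand was used in counting, so the Ctsl count is uncertain to that extent.

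Ctsf, which encodes another lysosomal endopeptidase, did not pass the test. It lies on chromosome 19 from 4855130 to 4860918 on the plus strand. Its level was 213, 241 and 203 CPM in rd10 and 324, 280 and 221 CPM in WT. The highest rd10 library was above the lowest WT library (log2 fold change -0.33 ± 0.16 SE, adjusted p = 0.200). It passed as lower in rd10 with inner neuron factors (-0.57, adjusted p = 0.0218; 21.4% of all genes were called lower with them) and after removal of a trend with transcript GC content (-0.37, adjusted p = 0.00365), an alternative chosen after seeing the data.

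Ctsk, the collagen-degrading cathepsin of osteoclasts, was near the detection limit. It had 12, 9 and 4 counts in rd10 and 8, 6 and 11 counts in WT, with the groups mixed. At 0.664 ± 0.321 CPM in rd10 and 0.606 ± 0.169 CPM in WT (SD, n = 3 each) no difference was detectable at this depth. Ctsk was tested only in fits without the filter on low counts, where it was not called (edgeR log2 fold change 0.16, adjusted p = 0.883; DESeq2 0.14, adjusted p = 0.933).

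The cysteine exopeptidases, which trim peptides from an end, included 3 genes that rose between 1.84-fold and 1.97-fold. Ctsh encodes cathepsin H, an aminopeptidase, on chromosome 9 from 90054152 to 90076089 on the plus strand. Its level was 46.8, 44.5 and 47.4 CPM in rd10 and 23.8, 22.0 and 24.7 CPM in WT. The libraries of each group lay close together and the groups far apart. Ctsh rose 1.97-fold (log2 fold change 0.98 ± 0.12 SE, adjusted p = 0.00155).

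Ctsc encodes cathepsin C, a dipeptidyl peptidase that activates the serine proteases of immune granules. It lies on chromosome 7 from 88278085 to 88310888 on the plus strand. Its level was 52.0, 47.5 and 47.9 CPM in rd10 and 22.7, 25.1 and 30.9 CPM in WT. WT-23 was the highest WT library and still lay below every rd10 library. Ctsc rose 1.87-fold (log2 fold change 0.90 ± 0.15 SE, adjusted p = 0.00556).

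Ctsz encodes cathepsin Z, a carboxypeptidase also known as cathepsin X. It lies on chromosome 2 from 174427493 to 174439039 on the minus strand. Its level was 65.9, 81.9 and 67.6 CPM in rd10 and 46.5, 40.8 and 29.5 CPM in WT. Rd10-4 was the highest library and WT-23 the lowest, and the groups did not overlap. Ctsz rose 1.84-fold (log2 fold change 0.88 ± 0.18 SE, adjusted p = 0.0163). Leaving out WT-4, Rd10-3 or Rd10-4 ended the call, with an adjusted p of 0.0570, 0.0527 and 0.0554.

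Ctsb encodes cathepsin B, a dipeptidyl carboxypeptidase with endopeptidase activity and the second most abundant member. It lies on chromosome 14 from 63122462 to 63145923 on the plus strand. Its level was 794, 803 and 756 CPM in rd10 and 822, 879 and 838 CPM in WT. The rd10 libraries all lay below the WT libraries, by a small margin (log2 fold change -0.11 ± 0.10 SE, adjusted p = 0.502). With library size alone its log2 fold change was 0.13 (adjusted p = 0.427). Of its annotated exon bases 12.8% overlap Fdft1 on the opposite strand, which had 1916, 1512 and 1611 counts in rd10 and 1701, 2149 and 2009 counts in WT.

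The aspartic protease Ctsd was the most abundant member and rose. Cathepsin D is a main protease in the breakdown of outer segments by the pigment epithelium and in lysosomes of neurons and glia. The gene lies on chromosome 7 from 142375911 to 142388038 on the minus strand. It had 13669, 15140 and 13529 counts in rd10 and 9591, 10676 and 9288 counts in WT. In CPM this was 1049, 1289.9 and 1029 in rd10 and 784, 744 and 630 in WT, with Rd10-4 the highest library and no overlap. Ctsd rose 1.56-fold (log2 fold change 0.64 ± 0.14 SE, adjusted p = 0.0192). It was no longer called when WT-4, Rd10-3 or Rd10-4 was left out (adjusted p = 0.0688, 0.0614 and 0.0671), nor with inner neuron factors (0.39, adjusted p = 0.0587). A same-strand gene model, Gm49369, shares 34.4% of the annotated exon bases of Ctsd and was not in the count table.

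Ctsa encodes cathepsin A, the serine carboxypeptidase that also shields beta-galactosidase and neuraminidase in the lysosome. It lies on chromosome 2 from 164832873 to 164841032 on the plus strand. Its level was 138, 163 and 129 CPM in rd10 and 138, 124 and 87.5 CPM in WT. The groups overlapped, and Ctsa did not pass the test (log2 fold change 0.30 ± 0.18 SE, adjusted p = 0.310). Pltp on the opposite strand overlaps 10.5% of its annotated exon bases and had 487, 621 and 444 counts in rd10 and 812, 752 and 492 counts in WT.

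**Figure D3:**
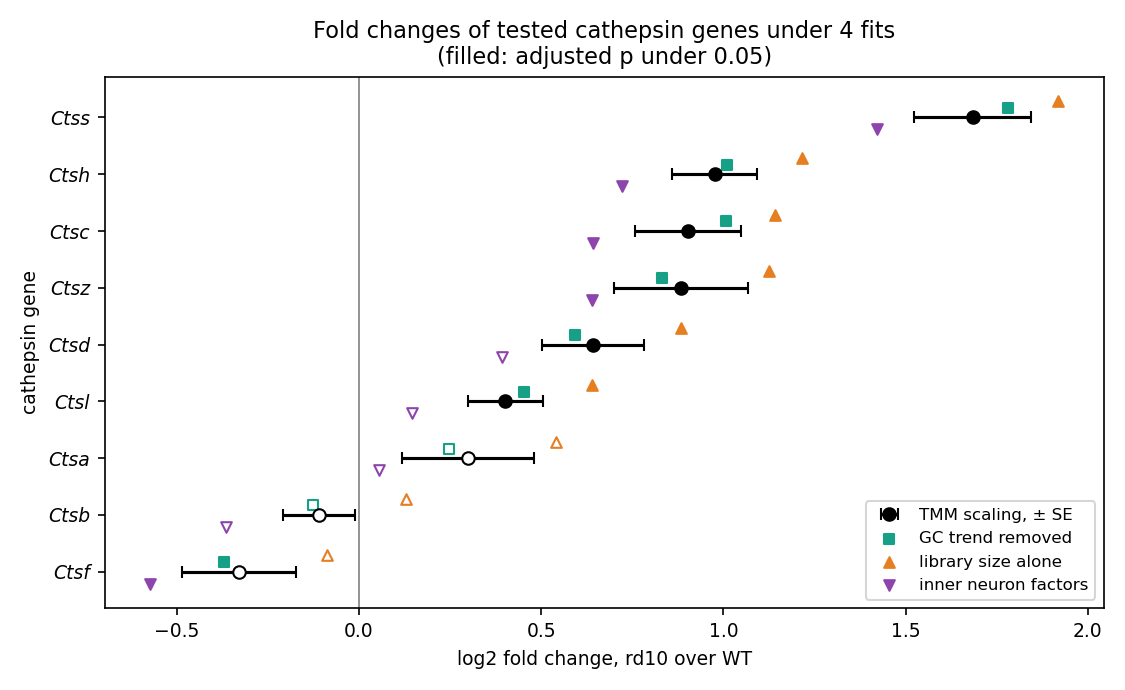
Log2 fold change of rd10 over WT for the 9 cathepsins tested, with TMM factors (bars are ± 1 SE) and with library size alone, inner neuron factors and the GC trend removed. Ctss stands highest at 1.68, Ctsh, Ctsc and Ctsz lie between 0.88 and 0.98 with TMM factors, and Ctsb lies on both sides of 0 depending on the factors.

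Ratios between members do not depend on how libraries are scaled. There were 0.292, 0.423 and 0.336 Ctss counts per Ctsl count in rd10 and 0.124, 0.154 and 0.149 in WT, a ratio of means of 2.46 (exact two-sided permutation p = 0.1). Ctsd counts per Ctsb count were 1.43 ± 0.155 in rd10 and 0.850 ± 0.101 in WT (SD, n = 3 each; exact permutation p = 0.1). Ctss counts per Ctsh count were 1.92 ± 0.331 in rd10 and 1.17 ± 0.191 in WT (exact permutation p = 0.1). In each of these 3 ratios all rd10 libraries were above all WT libraries. Each sets a member of larger log2 fold change over a member of smaller. Their direction therefore follows from the fold changes above and is not further support for a difference between members.

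Of 13 other cathepsin genes, 10 had no count in any library, most of them from the rodent placental cluster. Ctso, a papain-family gene of broad expression, was the only other one that passed the filter on low counts. It had 49.4, 45.9 and 40.2 CPM in rd10 and 27.6, 33.9 and 38.5 CPM in WT, apart by a narrow margin (log2 fold change 0.44 ± 0.16 SE, adjusted p = 0.104). It passed the test with library size alone (0.68, adjusted p = 0.0232) and with the GC trend removed (0.55, adjusted p = 0.00624). Ctsw, of cytotoxic lymphocytes, had 5, 8 and 3 counts in rd10 and 0, 4 and 0 counts in WT. Ctse, an intracellular aspartic protease, had 6, 5 and 2 counts in rd10 and 1, 7 and 2 counts in WT. Neither passed the filter, and in the edgeR fit without it neither was called (Ctsw log2 fold change 2.07, adjusted p = 0.233; Ctse 0.53, adjusted p = 0.704).

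Inhibitors of cathepsins moved both ways. Of 16 cystatins, serpins and related genes listed, 9 were tested, 2 rose (Cst7 and Cd74) and 1 fell (Cst3), with a median log2 fold change of 0.46. Cst3 encodes cystatin C, the abundant secreted inhibitor of cysteine cathepsins. It had 460, 567 and 477 CPM in rd10 and 952, 779 and 651 CPM in WT, with every rd10 library below every WT library. Cst3 fell by 0.66 ± 0.16 on the log2 scale (SE, adjusted p = 0.0303). It was no longer called when WT-4, Rd10-3 or Rd10-5 was left out, with an adjusted p of 0.106, 0.136 and 0.0962, nor with scaling by library size (-0.42, adjusted p = 0.0836).

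Set against their inhibitor, the 8 cysteine cathepsins had 3.29, 2.75 and 3.08 counts per Cst3 count in rd10 and 1.52, 1.88 and 2.12 in WT. No WT library reached the lowest rd10 library, and the ratio of means was 1.65 (exact two-sided permutation p = 0.1). With TMM factors most of this lay in the lower Cst3 level (0.63-fold), as the summed cysteine cathepsins had a ratio of only 1.06. That split depends on the scaling, though the counts per Cst3 count do not. With library size alone the log2 fold change of Cst3 was -0.42, against -0.66 with TMM factors. The counts per Cst3 count are of transcripts and say nothing of protein or enzyme activity.

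Cst7 encodes cystatin F, an inhibitor carried in lysosomes of immune cells that acts on cathepsin C among others. It had 26, 18 and 37 counts in rd10 and 1 count in each WT library. Per scaled library size, the rd10 to WT ratio of summed counts was 29.4 (95% exact interval 9.72 to 146, covering counting error only). Cd74 encodes the invariant chain, a substrate of cathepsin S and, in one of its forms, an inhibitor of cathepsin L. It had 82, 102 and 78 counts in rd10 and 2, 13 and 23 counts in WT, far apart but with WT-1 much the lowest. Cd74 rose by 2.93 ± 0.50 on the log2 scale (SE, adjusted p = 0.00676), with 3.64 when WT-23 was left out and 2.48 when WT-1 was (adjusted p up to 0.0440 with 1 library left out). Cstb, the intracellular cystatin B gene, averaged 24.8 ± 2.43 CPM in rd10 and 23.6 ± 2.47 CPM in WT and did not pass the test (adjusted p = 0.777).

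Of 20 tested genes listed for the maturation, partners or sorting of cathepsins 3 were called (15%), close to the 14.4% of all genes. Not all of them act on cathepsins, since Neu1 and Glb1, for enzymes that cathepsin A shields, are among them. For Prdx6, Tpp1 and Dpp7, also listed, no source used here gives a part in cathepsin maturation. Of the 8 genes in the maturation and partner list 2 rose, Grn and Prdx6. Grn encodes progranulin, a partner of cathepsin D, and Prdx6 a peroxiredoxin with phospholipase activity. Grn averaged 102 ± 14.3 CPM in rd10 and 49.3 ± 9.70 CPM in WT (log2 fold change 1.04 ± 0.18 SE, adjusted p = 0.00686). Prdx6 averaged 411 ± 36.9 CPM in rd10 and 180 ± 10.5 CPM in WT (log2 fold change 1.19 ± 0.11 SE, adjusted p = 0.000725). Lgmn, the legumain gene whose product cleaves several cathepsin precursors, did not pass (-0.12 ± 0.14, adjusted p = 0.608).

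Of 12 sorting genes only Sorl1, a sorting receptor of neurons, passed the test. It averaged 249 ± 25.7 CPM in rd10 and 138 ± 5.22 CPM in WT (log2 fold change 0.85 ± 0.12 SE, adjusted p = 0.00280). The median of the sorting list was -0.10. The mannose 6-phosphate receptor genes M6pr (-0.08 ± 0.12, adjusted p = 0.705) and Igf2r (0.14 ± 0.14, adjusted p = 0.547) did not pass. Of 4 genes of the TFEB family of lysosomal regulators 3 were tested, and 0 passed (edgeR; 0 also at an unadjusted p under 0.05, by DESeq2 and by limma voom). Tfe3 had a log2 fold change of 0.23 ± 0.15 (adjusted p = 0.343) and Mitf of -0.31 ± 0.22 (adjusted p = 0.379).

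The other parts of the lysosome changed unevenly. Of 14 lysosomal membrane genes, 6 rose and 1 fell (median log2 fold change 0.43), beside 7.12% and 7.32% of all genes tested. Without WT-4, Rd10-3 or Rd10-4, 3 rose and 1 fell, in fits that called 952, 885 and 1227 genes in all, against 2008. With inner neuron factors 3 rose and 2 fell, beside 21.4% of all genes called lower. Cd68, a lysosomal glycoprotein of phagocytes, averaged 8.16 ± 0.768 CPM in rd10 and 1.57 ± 0.228 CPM in WT (2.37 ± 0.21 SE, adjusted p = 0.000581). Laptm5, a lysosomal protein of hematopoietic cells, rose by 2.41 ± 0.23 and the tetraspanin gene Cd63 by 1.01 ± 0.10 (adjusted p = 0.000744 and 0.000917). Npc2, a cholesterol carrier, rose by 0.45 ± 0.11 (adjusted p = 0.0278). Laptm4b, a further lysosomal transmembrane gene, fell by 0.66 ± 0.10 on the log2 scale (adjusted p = 0.00513).

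Of 29 other lysosomal hydrolases tested, 5 rose and 1 fell, with a median of 0.34, beside 7.12% and 7.32% of all genes. Without WT-4 or Rd10-3, 2 rose and none fell, in fits that called 952 and 885 genes in all, against 2008. Gusb, the beta-glucuronidase gene, averaged 18.5 ± 0.806 CPM in rd10 and 8.75 ± 1.10 CPM in WT (1.08 ± 0.15 SE, adjusted p = 0.00322). Arsb and Manba, a sulfatase and a mannosidase, rose by 0.48 ± 0.11 and 0.67 ± 0.15 on the log2 scale (adjusted p = 0.0207 and 0.0239). Hgsnat, an acetyltransferase of heparan sulfate breakdown, fell by 0.46 ± 0.11 (adjusted p = 0.0315). The calls of Npc2, Arsb, Manba and Hgsnat were lost when 1 library was left out, in each case without WT-4 (adjusted p = 0.111, 0.0997, 0.0774 and 0.186), without Rd10-3 (0.120, 0.123, 0.113 and 0.133) and without Rd10-4 (0.103, 0.0739, 0.0878 and 0.107). Without Rd10-5 those of Npc2, Manba and Hgsnat were lost too (adjusted p = 0.0816, 0.0526 and 0.101), and Hgsnat without WT-23 (0.0623). With inner neuron factors 2 hydrolases were called higher and 3 lower, beside 21.4% of all genes called lower. The calls of Npc2, Arsb and Manba ended in that fit (adjusted p = 0.224, 0.204 and 0.0939). By comparison 14 hydrolases passed with library size alone, all higher in rd10, beside 17.8% of all genes called higher. With the GC trend removed 16 passed, 13 higher and 3 lower, beside 32.0% of all genes called.

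**Figure D4:**
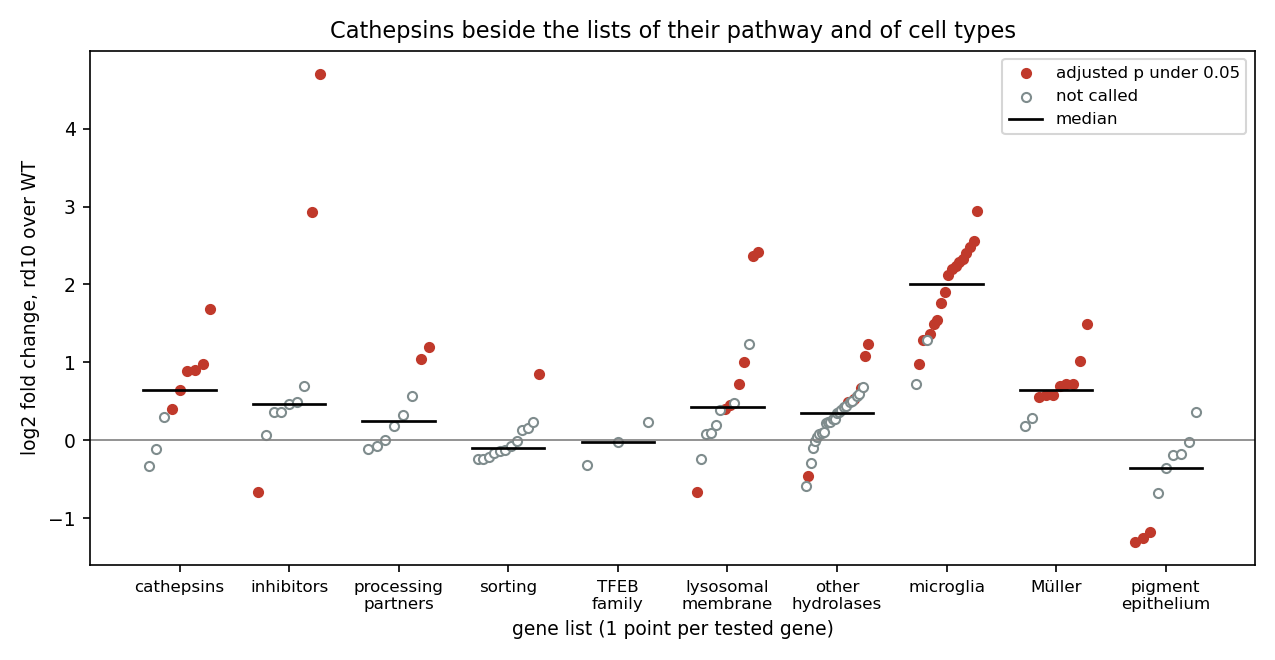
Log2 fold change of rd10 over WT (TMM factors) of each tested gene in the cathepsin, inhibitor, maturation, sorting, TFEB family, lysosomal membrane, hydrolase, microglial, Müller cell and pigment epithelium lists, with filled points for genes that passed the test and a line at each list median. The median of the cathepsins (0.64) is close to that of the Müller cell genes (0.64). It lies above those of the inhibitors (0.46), lysosomal membrane genes (0.43) and hydrolases (0.34), and below that of the microglial genes (2.01).

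Markers of several cell types moved with the cathepsins. Of 18 microglial genes 16 rose in rd10, beside 7.12% of all genes, among them Fcrls (log2 fold change 2.95 ± 0.17) and Itgam (2.12 ± 0.17). All 18 had every rd10 library above every WT library, beside 17.1% of all genes. Their summed level was 303 to 403 CPM in rd10 and 84.8 to 107 CPM in WT, with none at 0. The median log2 fold change of this list was 2.01, and 11 of its 18 genes had a larger one than Ctss. Per 1000 counts of the microglial list there were 244, 253 and 287 Ctss counts in rd10 and 214, 341 and 358 in WT. These ratios overlapped between the groups (means 261 ± 22.7 in rd10 and 304 ± 78.4 in WT, exact two-sided permutation p = 0.4). The part of microglial abundance in the level of Ctss or of any other cathepsin was not tested, and overlap of 3 against 3 ratios cannot settle it.

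Of 10 Müller cell genes, 8 rose (median 0.64, with Crym at 1.496 ± 0.159 and Slc1a3 at 0.72 ± 0.11), beside 7.12% of all genes. Without WT-4 or Rd10-3, 4 rose, and 5 without Rd10-4, in fits that called 952, 885 and 1227 genes in all, against 2008. With inner neuron factors 3 Müller cell genes rose, and their median was 0.38. The summed level of this list was 10023 to 10870 CPM in rd10 and 7591 to 7966 CPM in WT. Of 9 pigment epithelium genes tested of 10 listed, 3 fell, among them Rpe65 (-1.18 ± 0.17) and Rgr (-1.30 ± 0.22), with a summed level of 204 to 359 CPM in rd10 and 337 to 368 CPM in WT. Border macrophage genes summed to 32.9 to 40.1 CPM in rd10 and 24.2 to 28.4 CPM in WT. Of the 3 of these 7 genes that were tested, 2 rose, Mrc1 (1.49 ± 0.33) and Ms4a7, which had 26, 21 and 15 counts in rd10 and 1, 2 and 0 counts in WT. Leaving out WT-4, Rd10-3 or Rd10-4 ended the call of Mrc1, with an adjusted p of 0.0906, 0.101 and 0.0670.

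Genes of monocytes and neutrophils summed to 1.62 to 2.51 CPM in rd10 and 0.736 to 1.88 CPM in WT, with Elane and Mpo at 0 in every library; 1 of 10 was tested and it did not pass. Lymphoid genes summed to 3.75 to 5.78 CPM in rd10 and 1.88 to 2.17 CPM in WT, with Cd3e, Cd3g, Cd2, Ncr1 and Klrb1c at 0 in WT. Of 12 lymphoid genes 2 were tested and Lck rose (1.48 ± 0.34), a call that ended when WT-4, Rd10-3 or Rd10-5 was left out (adjusted p of 0.107, 0.101 and 0.0840). Of the neuronal lists, 5 of 13 bipolar genes and 1 of 13 ganglion cell genes rose (Gap43, 0.41 ± 0.11), beside 7.12% of all genes. The bipolar count was 0 without WT-4 or Rd10-3, 2 without Rd10-4 and 1 without Rd10-5. In that order these fits called 952, 885, 1227 and 1317 genes in all, against 2008. With inner neuron factors 0 bipolar genes were higher and 1 lower. Gap43 was called without WT-1 but not without any 1 of the other libraries or with inner neuron factors (adjusted p between 0.0521 and 0.376). Inner neuron factors were set on the bipolar, amacrine and ganglion lists themselves, which centres these lists by construction. They therefore cannot test whether genes of these lists changed. Of 13 amacrine genes 0 passed in edgeR, with 2 at an unadjusted p under 0.05, 1 by DESeq2 and 0 by limma voom. Of 10 vascular genes, of endothelial and mural cells, 1 rose (Kdr, 0.92 ± 0.12) and 9 were not called, Pecam1 and Cdh5 among them. The part of any of these cells in the cathepsin levels was not tested.

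Within each group, cathepsin levels also varied with the GC content of the transcript. From WT-1 to WT-23 the log2 CPM of Ctsa and Ctsz, with 57.02% and 57.32% mean transcript GC, differed by 0.66 and 0.65, with WT-1 the higher. Ctsc and Ctss, with 44.7% and 45.9% GC, differed by -0.44 and -0.40 in the same direction of subtraction. Across the 9 tested members Pearson's r between GC and this difference was 0.969, and across 13302 tested genes it was 0.723. Genes share these libraries, so no p is given. In rd10 the same comparison of Rd10-4 with the mean of Rd10-3 and Rd10-5 had an r of 0.556 over the 9 members and 0.607 over all genes. Ctss was the exception there, with low GC and a difference of 0.31. With the GC trend removed, the 6 called members stayed called and Ctsa had an adjusted p of 0.0523.

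**Figure D5:**
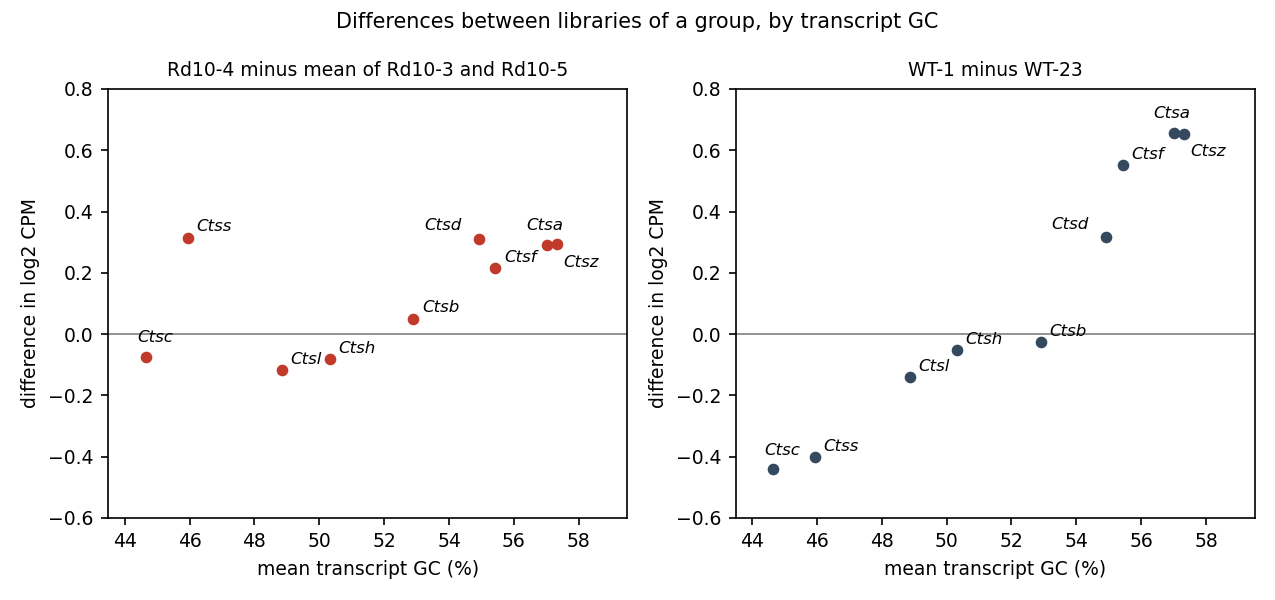
Difference in log2 CPM between libraries of the same group for the 9 tested cathepsins, against mean transcript GC in percent: Rd10-4 minus the mean of Rd10-3 and Rd10-5 on the left, and WT-1 minus WT-23 on the right. GC-rich Ctsa, Ctsz, Ctsf and Ctsd are high in WT-1 and in Rd10-4, and GC-poor Ctsc and Ctss are low in WT-1.

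The genes whose profile over the 6 libraries lay nearest to a member were found by Euclidean distance between log2 CPM values centred on each gene's mean, among the 11360 genes that averaged 5 CPM or more. Nearest to Ctss were Mgst1 (distance 0.24), H2-Q4 (0.29) and Rnase4 (0.37). Nearest to Ctsh were Tnfrsf21 (0.07), Ccnd2 (0.12) and Arhgef5 (0.13). Ctsc lay nearest to Cadps2 (0.11), Cd302 (0.14) and the microglial gene Siglech (0.16). Ctsz lay nearest to P2rx4 (0.19), Ctsd to Gstm7 (0.09), Ctsl to Gabarap (0.04), Ctsa to Nagk (0.08), Ctsb to Sec24b (0.06) and Ctsf to Ndufb8 (0.08). The profile of Ctss had no gene as near as those found for the other members.

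In the authors' deposited table, which gives 1 FPKM value per group, the same 6 members were listed as higher in rd10. It is a selected list of 3427 genes from the same series, so it is not an independent check. The share of all its genes that were higher in rd10 was not counted. Ctss had 66.3 FPKM in rd10 and 20.6 FPKM in WT in the authors' deposited table, with a log2 fold change of 1.68. Ctsd had 454 FPKM in rd10 and 291 FPKM in WT there. Ctsh had 46.1 FPKM in rd10 and 23.5 FPKM in WT in that deposited table, which puts Ctsh above Ctss in WT, unlike the order per kb given above. Ctso was also listed by the authors' deposited table, with 37.5 FPKM in rd10, 27.7 FPKM in WT and an unadjusted p of 0.0216.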

How the data were processed

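Per the labels' protocols, RNA of 2 frozen retinas per sample went into strand-marked TruSeq libraries. The tools named are TopHat2 2.1.0, HTSeq and edgeR, with build mm10, per the submitters' processing notes. The roles of the tools, the strand setting of the counting and the annotation are not stated there. As deposited, the count table holds raw whole-number counts per gene for 6 libraries. The authors also deposited, per the file headers, a table with 1 FPKM per group, a log2 fold change and a p-value for 3427 genes; the last table was copied and not retested.

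Columns were assigned to rd10 or WT by name. Pairs of libraries within a group differed by a chi-square per degree of freedom of 7.36 to 57.8, so none is a copy of another. Genes passing filterByExpr were compared by genotype with the robust quasi-likelihood test of edgeR 4.0.16 in R 4.3.3, with TMM factors, no covariate and Benjamini-Hochberg adjustment over all 13905 genes at 0.05. SE is the log2 fold change divided by the square root of F. For single values, scipy 1.17.1 gave exact permutation p-values, two-sided. Levels per kb, positions and GC content came from GENCODE M21, and 95.7% of tested genes had a GC value. The code was checked on simulated counts.

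Alternatives were DESeq2 1.42.0, limma voom 3.58.1, other scaling factors and filters, leaving out each library, and removal of a GC trend (chosen after seeing the data). The cathepsins and the 19 gene lists were chosen with earlier results of these data known. Named genes are all members, any other cathepsin that passed the filter, up to 5 called genes of smallest p per pathway list (the 2 most abundant where none was called), up to 2 per cell type list, and the 3 genes nearest each member. Further genes (Pde6b, Lgmn, Cstb, M6pr, Igf2r, Ctsw, Ctse and markers at 0) are given for context and were chosen after their values were seen. Some genes that this rule names are not reported here. Intervals cover counting error only.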

Additional observations from a re-analysis of the deposited data

How the results depend on the processing

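Ctss, Ctsh and Ctsc passed as higher in rd10 under all 15 alternatives, with adjusted p from 1.22e-17 to 0.00819, from 2.07e-09 to 0.0156 and from 7.53e-06 to 0.0438. The number of members called was 3 to 6 with 1 library left out. Over all genes the number called was 3043 with library size alone, 3624 with inner neuron factors, 4443 with the GC trend removed and 885 to 3214 with 1 library left out, against 2008. In the 6 pathway lists together 19 genes passed, against 34 with library size alone, 37 with the GC trend removed and 11 to 22 with 1 library left out. Ctsb reversed to 0.13 with library size alone. Ctsd went to 0.39 and Ctsl to 0.14 with inner neuron factors, both no longer called, and ranged over 0.53 to 0.71 and 0.37 to 0.46 with 1 library left out; Ctsz ranged over 0.74 to 1.03. Ctsf passed at -0.57 with inner neuron factors and -0.37 with the GC trend removed. Of genes that never passed, Tfe3 turned to -0.0162 and Ly6c2 to -0.0548 with inner neuron factors, and Ly6c2 ranged from -0.0486 to 0.562 with 1 library left out. With 1 library left out, 0 to 7 bipolar genes passed (0 without WT-4 or Rd10-3), 0 to 4 ganglion cell genes (4 without WT-1), 0 to 2 amacrine genes, 1 to 3 border macrophage genes and 1 to 2 vascular genes. The cause of these shifts was not tested. No paired analysis was possible because the library names of rd10 and WT share only 1 number (4), and their numbers are not those of the titles. With 3 libraries per group, exact permutation tests could not go below 0.1, and Ctsk, Ctsw and Ctse did not pass the filter on low counts and were not called in the fit without it.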
